A study of Capra hircus with 12 samples.

Results

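The genes described here belong to families of enzymes and DNA-binding subunits that modify or move nucleosomes, although some members are known for other roles. They are the histone H3 lysine 4 (H3K4) methyltransferases of the KMT2 and SETD1 families, other histone methyltransferases and the lysine demethylases (KDM genes). With them are the CHD remodelers, the ARID proteins, the histone deacetylases (HDAC genes) and the acetyltransferases EP300 and CREBBP. They were chosen by a pattern of gene symbols, which matched 67 of the 28910 rows in the count table of each cartilage layer, and the set itself was selected on a measured value, the lower KMT2D count in middle layer cells given LOXL2. Values from that contrast are therefore a description and carry no test. The deacetylases and the 2 acetyltransferases act on histone acetylation, so the set is wider than methylation and remodeling. NSD2 and NSD3 were measured under their older symbols, WHSC1 and WHSC1L1, which the pattern does not match, so they are not counted as members.

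Histone methyltransferases add methyl groups to lysines of histone tails, and demethylases remove them. Methylation of H3K4 by KMT2 and SETD1 complexes marks promoters and enhancers of active genes, whereas methylation of H3K27 by the Polycomb enzymes EZH1 and EZH2 marks silenced genes. CHD proteins and the ARID-containing SWI/SNF complexes use ATP to slide or evict nucleosomes, and in cartilage this machinery is known for setting chondrocyte gene programs during development and for responses of joint cells to inflammatory signals.

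Bulk RNA was sequenced from cells of goat temporomandibular joint (TMJ) cartilage, separated into superficial layer cells (SLC) and middle layer cells (MLC), with 3 libraries in each of 4 groups. The cells came from female goats aged 6 to 9 months, obtained from abattoirs, and were used at passages 3 to 5. The IL-1β groups received 10 ng of the inflammatory cytokine IL-1β for 1 h. The IL-1β+LOXL2 groups were first transduced overnight with an adenovirus (Ad5) carrying LOXL2, a lysyl oxidase that crosslinks collagen and elastin, and then received the same IL-1β. Every library used here had IL-1β. The culture methods do not say whether the IL-1β groups received an empty adenovirus, so the effects of LOXL2 and of adenovirus cannot be told apart. Neither the labels nor the methods tie replicates to separate animals or cultures, so p-values measure the spread between these libraries, which may be technical.

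Library totals were 18751323 to 28931652 counts in SLC and 14158607 to 19459045 in MLC. The first SLC IL-1β+LOXL2 replicate stood apart from the other two of its group (chi-square per degree of freedom of 159 and 58.1 against 29.2 between those), so SLC counts and the log2 fold changes of the leading genes are also given with it left out. In MLC the first IL-1β+LOXL2 replicate was also the farthest from its group, at lower values (15.2 and 33.9 against 5.81). The LOXL2 gene was no higher where the label names LOXL2: its normalized count was 11711 ± 162 (SD, n = 3) with IL-1β and 9675 ± 1000 with IL-1β+LOXL2 in SLC, and 15299 ± 1000 and 14619 ± 729 in MLC. Of 14 chondrocyte markers 13 were in the tables. Their summed normalized count, most of it in every SLC library from COL11A1 alone, was 25030 to 27540 in SLC IL-1β, 14110 to 24720 in SLC IL-1β+LOXL2, 33930 to 36860 in MLC IL-1β and 28280 to 35870 in MLC IL-1β+LOXL2. COL11A1 was 21920 to 24322 in SLC IL-1β, 11166 to 21607 in SLC IL-1β+LOXL2 and 21665 to 22671 in MLC IL-1β. COL2A1, the main cartilage collagen, was at 194 to 388 in MLC and at most 0.844 in SLC, and MATN1 was at 0 in all 12 libraries. Of the macrophage and leukocyte markers, whose sum was 1033 to 2626, the pan-leukocyte gene PTPRC was at most 1.93, CSF1R 16.9 to 35.9, CD68 76.9 to 240.5 and CD14 879 to 2479. Of the endothelial markers, whose sum was 54.4 to 97.6, CDH5 was at most 1.70 and VWF 22.2 to 78.3. In bulk samples, fewer cells of a type and less RNA per cell cannot be told apart, and the part of these markers in the results below was not tested.

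Of the 67 genes, 65 were tested in each layer, where a gene needed at least 10 counts in at least 3 of the libraries compared. KDM4D, an H3K9 demethylase, had 0 to 2 counts per library and CHD5, a remodeler known mainly from neurons, had 3 to 11, so neither was tested. The tested members with the lowest counts were HDAC8 with 28 to 68 and ARID3B with 27 to 94. The lowest count of any tested member in any library was 27, so no member passed the limit through 1 group alone. Normalized counts below are counts divided by DESeq2 size factors, on 1 scale for the 12 libraries. They were not divided by gene length, so levels of different genes are not compared.

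In SLC, most of these genes had lower counts in the IL-1β+LOXL2 libraries. The log2 fold change of IL-1β+LOXL2 over IL-1β was negative for 50 of the 65 members and positive for 15, with a median of −0.39 against 0.01 over all 14164 genes tested. All 3 IL-1β+LOXL2 libraries lay below all 3 IL-1β libraries for 43 members (66.2% of them, against 25.2% of all genes) and above them for 7 (10.8%, against 23.6%). No gene passed an adjusted p of 0.05 in edgeR's quasi-likelihood test (0% of genes, lowest adjusted p 0.0706 by Benjamini-Hochberg), although 6119 genes had an unadjusted p under 0.05. At that unadjusted level 39 members were lower (60%, against 20.2% of all genes) and 4 were higher (6.15%, against 23.0%). DESeq2's Wald test on the same libraries called 4130 genes, among them 31 members lower (47.7%, against 13.8% of genes) and 2 higher (3.08%, against 15.4%).

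**Figure D1:**
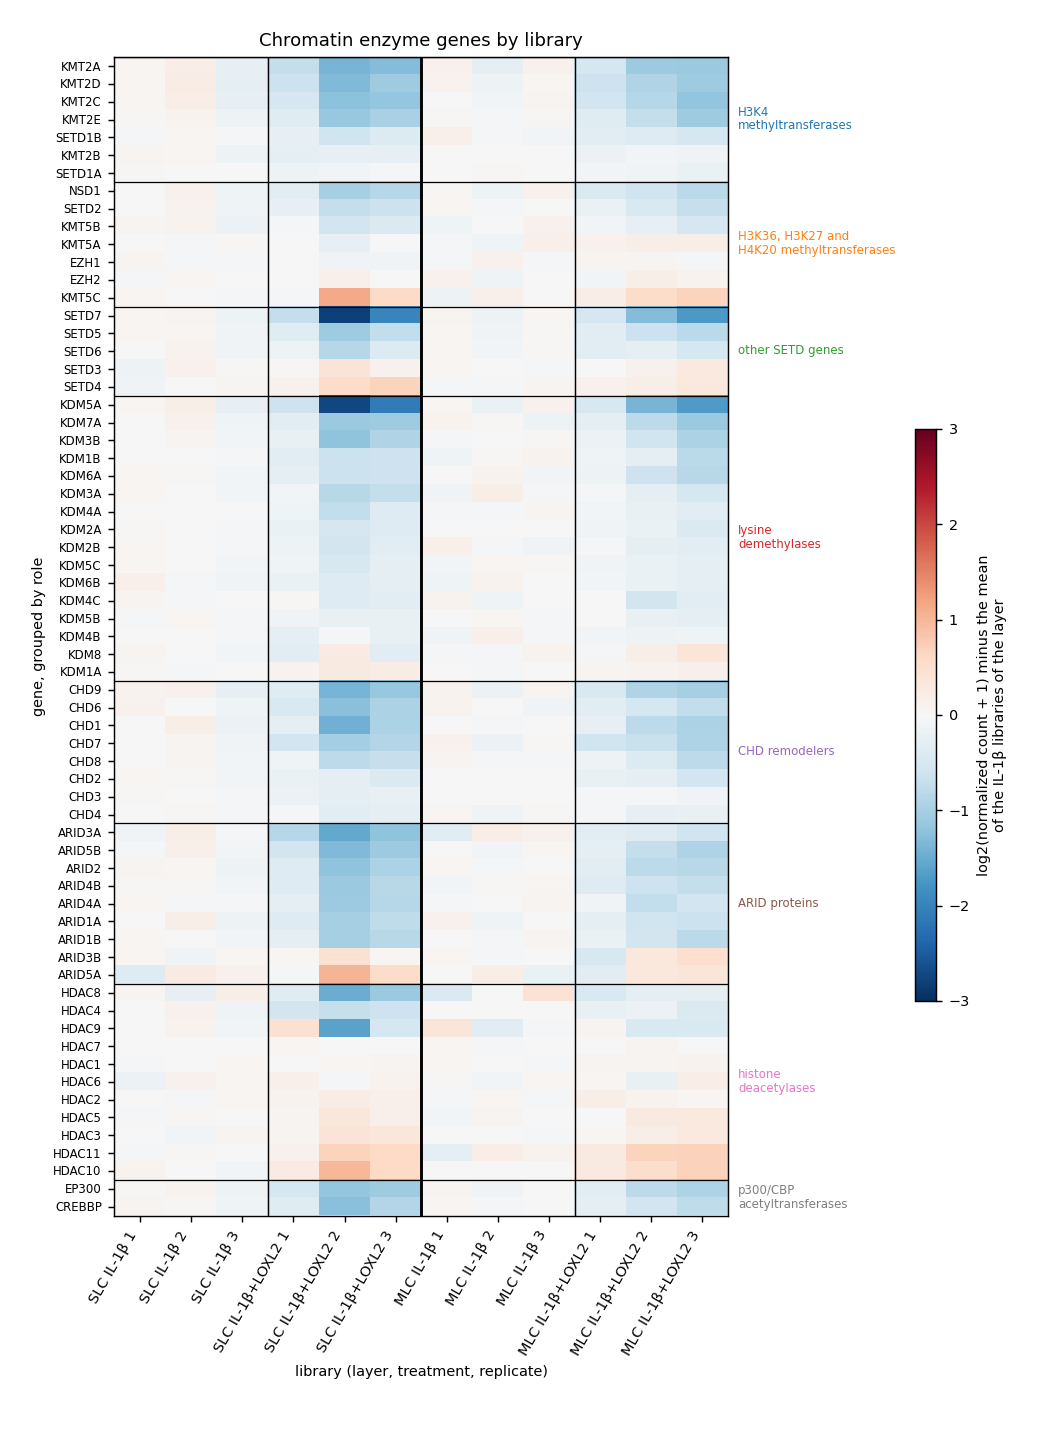
Heat map of the 65 tested genes (vertical, by role) in the 12 libraries (horizontal). Colour is log2(normalized count + 1) minus the mean of the 3 IL-1β libraries of the same layer. Blue fills most of the IL-1β+LOXL2 columns in both layers, less so among the deacetylases and the H3K36, H3K27 and H4K20 methyltransferases. It is palest in the first replicate of both IL-1β+LOXL2 groups.

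The first SLC IL-1β+LOXL2 replicate held values between those of the IL-1β libraries and its own group for most members. The median member deviated from the mean of the SLC IL-1β libraries by −0.21 on the log2 scale in that replicate, by −0.64 in the second and by −0.42 in the third, while the IL-1β libraries ranged from −0.08 to 0.05. Among the 50 members with a negative log2 fold change, 43 had that replicate above the other two of its group and below the IL-1β mean. Without it, edgeR called 8803 genes, of which 45 members were lower (69.2%, against 31.2% of genes) and 8 higher (12.3%, against 31.5%), and the members' median was −0.56. With the second IL-1β+LOXL2 replicate left out instead, edgeR called 0 genes and the members' median was −0.30. A fit of all 12 libraries, which shares 1 estimate of the spread, called 38 members lower (58.5%, against 18.6%) and 6 higher (9.23%, against 22.3%) in SLC.

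KMT2D, an H3K4 monomethyltransferase of enhancers (5:30402184-30443171 of the goat genome ARS1.2), had normalized counts of 2479, 2787 and 1936 in the SLC IL-1β libraries and 1506, 951 and 1125 with IL-1β+LOXL2. All values of the second group lay below those of the first. The log2 fold change was −1.001 (SE 0.21, adjusted p 0.0706 by edgeR's quasi-likelihood test), and −1.21 when the first IL-1β+LOXL2 replicate was left out. Over all fits leaving out 1 library it ranged from −1.21 to −0.86. In MLC, the values behind the choice of the set, the counts were 2482, 2075 and 2404 with IL-1β and 1511, 1234 and 1107 with IL-1β+LOXL2, a log2 difference of −0.85.

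All 7 genes of the KMT2 and SETD1 families had a negative log2 fold change in SLC, with a median of −0.77. They are grouped here as H3K4 methyltransferases, although 1 of them, KMT2E, has no known methyltransferase activity, and SETD7, which can methylate H3K4, is described with the other SETD genes. KMT2A, the trithorax homolog MLL1, was lowest, at 1823, 2016 and 1492 with IL-1β against 1070, 666 and 718 with IL-1β+LOXL2. The log2 difference was −1.11 (SE 0.21) and the libraries of the 2 treatments did not overlap. KMT2C, the enhancer-bound paralog of KMT2D, and KMT2E were at −0.93 (SE 0.22) and −0.77 (SE 0.21). With the first IL-1β+LOXL2 replicate left out, KMT2A, KMT2C and KMT2E were at −1.36, −1.21 and −1.05. Their smallest differences over all fits leaving out 1 library were −0.98, −0.8 and −0.62. SETD1A, the catalytic subunit of a main H3K4 trimethylation complex, stood at the other end with 646, 634 and 626 against 567, 600 and 610. Its libraries did not overlap either, but the difference was −0.10 (SE 0.10). Among these 7 genes the 3 with the smallest differences were SETD1B at −0.41, KMT2B at −0.26 and SETD1A.

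The 2 acetyltransferases, which write active enhancer marks, were lower in every SLC IL-1β+LOXL2 library. EP300 (p300) had 2619, 2706 and 2300 with IL-1β and 1748, 1140 and 1212 with IL-1β+LOXL2, and its log2 fold change was −0.89 (SE 0.18). CREBBP (CBP) had 2130, 2084 and 1858 against 1582, 846 and 1106, a log2 fold change of −0.77 (SE 0.22). Neither gene passed the adjusted threshold in SLC (adjusted p 0.0706 for each, edgeR's quasi-likelihood test). When the first IL-1β+LOXL2 replicate was left out the differences were −1.11 and −1.05. The smallest differences over all fits leaving out 1 library were −0.77 and −0.58.

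Of 7 tested methyltransferases of H3K36, H3K27 and H4K20, 5 were on the negative and 2 on the positive side in SLC, and the median was −0.07. NSD1, an H3K36 dimethyltransferase, went from 1631, 1811 and 1511 to 1292, 827 and 904 (log2 −0.71, SE 0.18), without overlap. Its difference was −0.93 with the first IL-1β+LOXL2 replicate left out, and ranged from −0.93 to −0.58 over all fits leaving out 1 library. SETD2, the H3K36 trimethylating enzyme that travels with RNA polymerase II, was at −0.52 (SE 0.15). Of the genes outside the pattern, NSD2 (WHSC1) was at −0.22 (SE 0.12) with overlapping libraries and NSD3 (WHSC1L1) at −0.67 (SE 0.21) without overlap. The Polycomb enzymes overlapped between treatments: EZH2 was at 0.07 (SE 0.10) and EZH1 at −0.07 (SE 0.10), which became 0.02 once the trend with gene span described below was removed. KMT5C, an H4K20 methyltransferase of heterochromatin, read 176, 166 and 162 with IL-1β and 161, 369 and 252 with IL-1β+LOXL2. Here the first IL-1β+LOXL2 replicate lay below all 3 IL-1β libraries and the other two above them, and the difference was 0.64 (SE 0.28) with all libraries and ranged from 0.30 to 0.89 over the fits that left out 1 library.

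SETD7, a lysine methyltransferase of H3K4 and of many proteins that are not histones, had the most negative log2 fold change of all members. Its counts were 3612, 3668 and 3075 with IL-1β and 2101, 497 and 876 with IL-1β+LOXL2, so every IL-1β+LOXL2 library was lower, and those 3 libraries differed among themselves more than the IL-1β libraries did. The log2 fold change was −1.57 (SE 0.47, adjusted p 0.0709 by edgeR's quasi-likelihood test) and −2.34 with the first IL-1β+LOXL2 replicate left out. Over all fits leaving out 1 library it ranged from −2.34 to −1.20. SETD5 (−0.69, SE 0.18) and SETD6 (−0.45, SE 0.20) were also negative. SETD4 was on the other side at 211, 232 and 242 against 248, 334 and 364, a difference of 0.47 (SE 0.17, from 0.36 to 0.61 over fits leaving out 1 library), and SETD3, the actin histidine methyltransferase, was at 0.19 (SE 0.13) with overlapping libraries.

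Among the lysine demethylases 15 of 16 had a negative log2 fold change in SLC (median −0.34), and 11 (all lower, against 20.2% of all genes) had an unadjusted p under 0.05. KDM5A, which removes H3K4 methylation, was the lowest at 1294, 1410 and 1052 with IL-1β against 802, 186 and 291 with IL-1β+LOXL2. The groups did not overlap, and the difference was −1.55 (SE 0.49), or −2.40 without the first IL-1β+LOXL2 replicate. Over all fits leaving out 1 library it ranged from −2.40 to −1.18. Its paralogs KDM5B (−0.18, SE 0.10) and KDM5C (−0.29, SE 0.12) differed less. KDM7A (−0.78, SE 0.23) and KDM6A (−0.52, SE 0.14), which remove H3K27 methylation, and KDM3B (−0.72, SE 0.24), an H3K9 demethylase, were below the IL-1β libraries in all 3 IL-1β+LOXL2 libraries, and with the first of these left out they were at −1.10, −0.64 and −1.05. Their smallest differences over all fits leaving out 1 library were −0.64, −0.45 and −0.52. KDM1A (LSD1), a flavin-dependent enzyme unlike the JmjC demethylases, was the 1 positive member, at 2372, 2218 and 2341 against 2485, 2791 and 2673 (0.20, SE 0.10). Removing the trend with gene span turned the log2 fold changes of KDM2A, KDM2B, KDM4B, KDM4C and KDM5B positive.

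The 8 tested CHD remodelers were all negative in SLC, with a median of −0.65. CHD9 went from 1091, 1124 and 866 to 791, 387 and 462, a difference of −0.90 (SE 0.27, and −1.28 without the first IL-1β+LOXL2 library), and the treatments did not overlap. CHD6 (−0.85, SE 0.20), CHD1 (−0.80, SE 0.28) and CHD7 (−0.80, SE 0.15), the gene of CHARGE syndrome, did not overlap between treatments either. They were at −1.10, −1.19 and −0.95 without the first IL-1β+LOXL2 library. Over all fits leaving out 1 library, the smallest differences of CHD9, CHD6, CHD1 and CHD7 were −0.70, −0.68, −0.56 and −0.71. The NuRD ATPases CHD3 (−0.22, SE 0.09) and CHD4 (−0.21, SE 0.12) had the smallest differences, and CHD4 overlapped between treatments with 6076, 6243 and 5882 against 5892, 4778 and 4974. CHD2 (−0.30) turned positive when the trend with gene span was removed.

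Of 9 ARID genes 7 were negative and 2 positive, with a median of −0.70. ARID3A, a transcription factor, had 276, 334 and 285 with IL-1β and 163, 102 and 129 with IL-1β+LOXL2, without overlap, and its difference of −1.18 (SE 0.19) was the most negative of the group (−1.37 with the first IL-1β+LOXL2 replicate left out). ARID1A (−0.70, SE 0.17), ARID1B (−0.66, SE 0.19) and ARID2 (−0.81, SE 0.22), the DNA-binding subunits of SWI/SNF complexes, did not overlap between treatments, nor did ARID5B (−0.95, SE 0.21). Leaving out that replicate put these 4 at −0.88, −0.92, −1.08 and −1.21. Their smallest differences over all fits leaving out 1 library were −0.56, −0.52, −0.64 and −0.79, and that of ARID3A was −1.02. ARID5A, an RNA-binding protein that stabilizes inflammatory transcripts, had 76.9, 118 and 110 with IL-1β and 96.9, 205 and 148 with IL-1β+LOXL2. These libraries overlapped, and the difference was 0.57 (SE 0.29), from 0.27 to 0.79 over fits leaving out 1 library. ARID3B was at 0.21 (SE 0.20) with overlapping libraries, and from 0.07 to 0.29 over those fits.

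The histone deacetylases were arranged differently, with 3 negative and 8 positive log2 fold changes in SLC and a median of 0.08. Their median gene span, 32815 bases, was the shortest of the role groups, and its part in this was not tested. HDAC1, HDAC2 and HDAC3, the class I catalytic subunits of nuclear corepressor complexes, were at 0.05 (SE 0.09), 0.17 (SE 0.09) and 0.27 (SE 0.12). HDAC10, a polyamine deacetylase, was the highest at 432, 728 and 556 with IL-1β+LOXL2 against 393, 363 and 346 with IL-1β (0.65, SE 0.19), and HDAC11, a lysine deacylase, was at 0.49 (SE 0.15). Neither gene overlapped between treatments, and with the first IL-1β+LOXL2 replicate left out they were at 0.81 and 0.63. Their smallest differences over all fits leaving out 1 library were 0.44 and 0.39. HDAC8, at the low end of the counts, had 59.4, 46.8 and 63.0 against 43.4, 19.2 and 25.3 (−0.95, SE 0.33). Over all fits leaving out 1 library its difference ranged from −1.35, without the first IL-1β+LOXL2 replicate, to −0.70. HDAC4, a class IIa deacetylase that restrains chondrocyte hypertrophy, was at −0.61 (SE 0.11). HDAC9 overlapped between treatments, and its 3 IL-1β+LOXL2 values of 464, 110 and 234 spread more widely than its IL-1β values of 317 to 364. Its difference of −0.32 (SE 0.45) changed sign with the library left out, from −0.99 to 0.06.

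**Figure D2:**
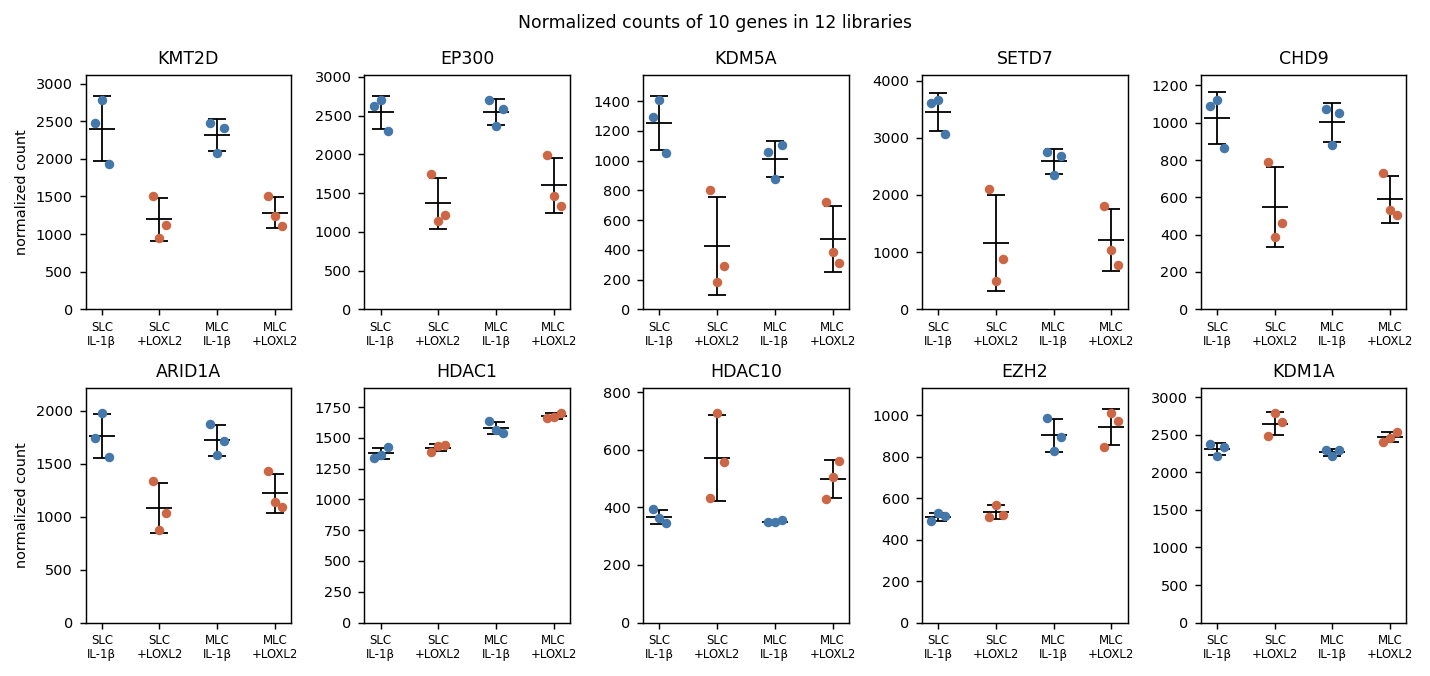
Normalized counts (vertical axis, linear from 0) of 10 genes in the 4 groups. Points are the 3 libraries, and the bar with whiskers is their mean ± SD. KMT2D, EP300, KDM5A, SETD7, CHD9 and ARID1A are lower with IL-1β+LOXL2 in both layers without overlap, HDAC10 and KDM1A are higher without overlap, and EZH2 separates the layers.

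Two-sided exact permutation tests of single genes with 3 against 3 libraries cannot give a p below 0.1. Any gene whose libraries do not overlap has that value by construction, so the test adds nothing to the lack of overlap described above.

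In MLC, where the choice of the set used KMT2D, the members are described without a test. Of 65 members 47 had a negative and 18 a positive log2 fold change, with a median of −0.28 against 0.01 over all 13806 genes tested. All 3 IL-1β+LOXL2 libraries lay below all 3 IL-1β libraries for 36 members (55.4%, against 20.1% of genes) and above for 7 (10.8%, against 21.0%). Nothing is read from these counts, since the set was chosen on this contrast.

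The lowest MLC values were again those of KDM5A and SETD7. KDM5A had 1055, 876 and 1107 with IL-1β and 722, 383 and 311 with IL-1β+LOXL2 (−1.10), and SETD7 had 2749, 2342 and 2686 against 1813, 1045 and 780 (−1.095). KMT2A was at −0.89, KMT2C at −0.85, EP300 at −0.67 and CREBBP at −0.53. ARID3A, the third lowest member in SLC, was at −0.45 in MLC and its libraries overlapped there, with 199, 288 and 275 against 201, 191 and 166. HDAC11 (0.54) and HDAC10 (0.51) were the highest. Of the 47 members with a negative MLC value, 41 had the first IL-1β+LOXL2 replicate above the other two of its group and below the IL-1β mean.

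**Figure D3:**
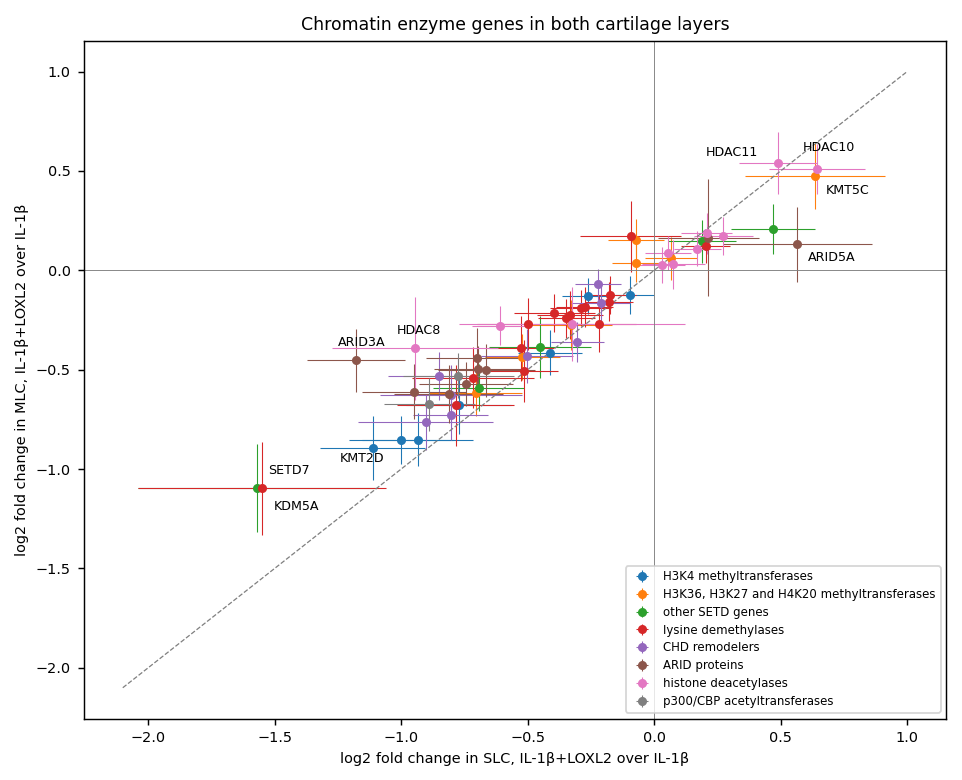
Log2 fold change of IL-1β+LOXL2 over IL-1β in SLC (horizontal) and in MLC (vertical) for the 65 tested genes, coloured by role, with standard errors. Of these, 47 lie in the lower left quadrant and 15 in the upper right, and the dashed line marks equal values.

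Across both layers 47 members were negative in each, 15 were positive in each and 3 (EZH1, KMT5A and KDM8) had opposite signs, with values from −0.09 to 0.17. Over all genes tested in both layers, 5811 of 13524 were negative in each. Of the members, 36 were below the IL-1β libraries without overlap in both layers (55.4%, against 14.9% of genes), and 5 above (7.69%, against 14.2%). The MLC side of these counts is the contrast that chose the set. Whether the treatment difference was unequal in the 2 layers was examined with an interaction term over the 12 libraries. edgeR called no gene (0% at the adjusted threshold, 331 genes or 2.27% at an unadjusted p under 0.05), and neither did DESeq2, which had 301 at the unadjusted level. Of the members 2 (3.08%), ARID3A and HDAC4, were below that unadjusted level, both less negative in MLC. The interaction contains the MLC contrast that the choice of the set used.

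Genomic span was not part of the selection, and it was greater for these genes. The median genomic span, from first to last annotated base, was 58346 bases for the 65 tested members (4035 to 1067937) against 20753.5 bases for the genes tested in SLC. Over 14134 genes in SLC the log2 fold change went down with genomic span (Spearman's rho −0.49), and among the 65 members rho was −0.52. In MLC rho was −0.48 over 13778 genes and −0.61 among the members. The points share libraries and normalization, so these values are descriptions.

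The SLC members were compared with genes of like span. For genes spanning 50000 to 100000 bases the median log2 fold change in SLC was −0.28 over 1937 genes and −0.69 for the 19 members among them. From 20000 to 50000 bases it was −0.06 over 3304 genes and −0.22 for 18 members, and under 10000 bases it was 0.37 over 4401 genes and 0.09 for 4 members. Per library, the median of the 33 members with the longest spans stood at −0.32, −1.07 and −0.83 in the 3 SLC IL-1β+LOXL2 libraries, and that of the 32 shorter members at −0.08, −0.18 and −0.16, relative to the IL-1β mean. The same ordering of the 3 libraries was present in all genes of 50000 bases or more (−0.14, −0.56 and −0.43), and in the opposite direction in all genes under 10000 bases (0.11, 0.58 and 0.41).

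With each library's trend on span removed, the members' median became −0.20 in SLC (0.05 over all genes) and −0.13 in MLC (0.03). Of the 50 members negative in SLC 8 turned positive, and of the 47 negative in MLC 7 did. KMT2D was then at −0.83 in SLC and −0.74 in MLC, KDM5A at −1.33 and −0.92, and SETD7 at −1.40 and −0.96. EP300 was at −0.60 and −0.47. Other named genes lost more of their difference. In SLC, NSD1 went from −0.71 to −0.32, ARID1B from −0.66 to −0.23, KDM6A from −0.52 to −0.10 and CREBBP from −0.77 to −0.41. HDAC4 went to −0.16 in SLC and to 0.02 in MLC. The share of the members' values that goes with span was not tested further.

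**Figure D4:**
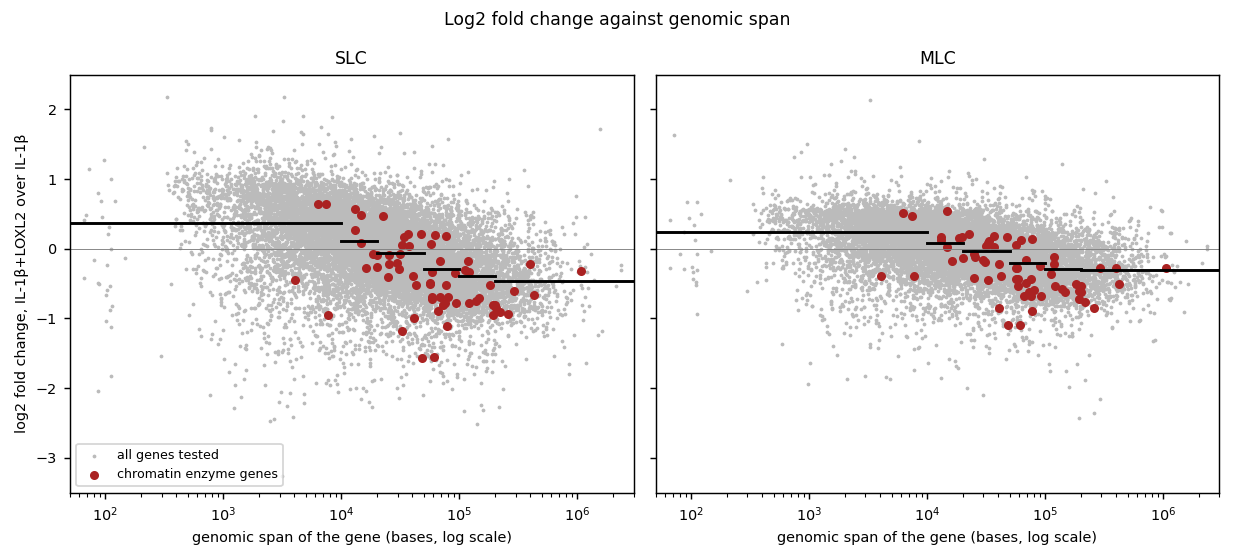
Log2 fold change of IL-1β+LOXL2 over IL-1β (vertical) against the genomic span of the gene in bases (horizontal, log scale) in SLC and MLC. Grey points are all genes tested, red points the 65 chromatin enzyme genes, and black bars the median of all genes in 6 classes of span, which goes from 0.37 to −0.46 in SLC and from 0.23 to −0.31 in MLC.

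The 2 layers under IL-1β alone form a contrast that the choice of genes did not use, and here 25 of 65 members differed by edgeR's quasi-likelihood test. In MLC 16 were lower than in SLC (24.6%, against 22.6% of the 14039 genes tested) and 9 were higher (13.8%, against 24.0%). The members' median log2 fold change was −0.05, against −0.01 over all genes. In the fit of all 12 libraries 9 of the members passed, 5 lower (7.69%, against 11.4% of genes) and 4 higher (6.15%, against 14.2%): EZH2, EZH1, KDM7A, HDAC4, ARID5A, HDAC7, CHD3, SETD1A and HDAC1. COL2A1 and the summed chondrocyte markers were higher in MLC, as given above, whereas COL11A1 overlapped between layers, and the part of these markers in the layer differences was not tested.

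EZH2 and EZH1, the alternative catalytic subunits of Polycomb repressive complex 2 (PRC2), differed in opposite directions. EZH2, which is known as the form of dividing cells, had 492, 528 and 514 in SLC and 988, 830 and 897 in MLC. Every MLC library was higher, by 0.84 on the log2 scale (SE 0.08, adjusted p 6.88e-07, Benjamini-Hochberg adjustment of edgeR's quasi-likelihood test). EZH1, known as the form of resting cells, had 1620, 1501 and 1489 in SLC and 976, 1107 and 975 in MLC, lower by −0.57 (SE 0.07, adjusted p 1.10e-05 in the same edgeR test). Both orders held in the IL-1β+LOXL2 libraries, where EZH2 was 512 to 570 in SLC and 846 to 1012 in MLC and EZH1 was 1423 to 1516 and 998 to 1071.

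KDM7A, a demethylase of H3K9 and H3K27, was lower in MLC at 174, 163 and 145 against 303, 329 and 274 in SLC (log2 −0.89, SE 0.11, adjusted p 1.66e-05 in the edgeR test). ARID5A was higher in MLC at 200, 233 and 177 against 76.9, 118 and 110 (1.01, SE 0.16, adjusted p 1.53e-04 in the edgeR test). The layers did not overlap for either gene. HDAC4 (−0.51), ARID4B (−0.42), KDM3A (−0.44), ARID2 (−0.48), HDAC7 (−0.31), SETD7 (−0.40), KDM2A (−0.27) and CHD3 (−0.26) were also lower in MLC and passed with each IL-1β library left out in turn. So did CHD2, HDAC11 and KDM3B, lower in MLC, and HDAC5, SETD1A and HDAC1, higher in MLC. HDAC6, HDAC9, ARID4A, SETD3, KDM6A, KDM5A and CHD7 passed with all 6 libraries but not in every one of those fits. In the fit of all 12 libraries these did not pass, nor did ARID4B, KDM3A, ARID2, SETD7, KDM2A, CHD2, HDAC11, KDM3B or HDAC5. KMT2D did not pass between layers, with 2401 ± 431 (SD, n = 3) in SLC and 2321 ± 216 in MLC (−0.03, SE 0.11), nor did EP300 (0.02, SE 0.07) or KDM1A (−0.01, SE 0.06).

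**Figure D5:**
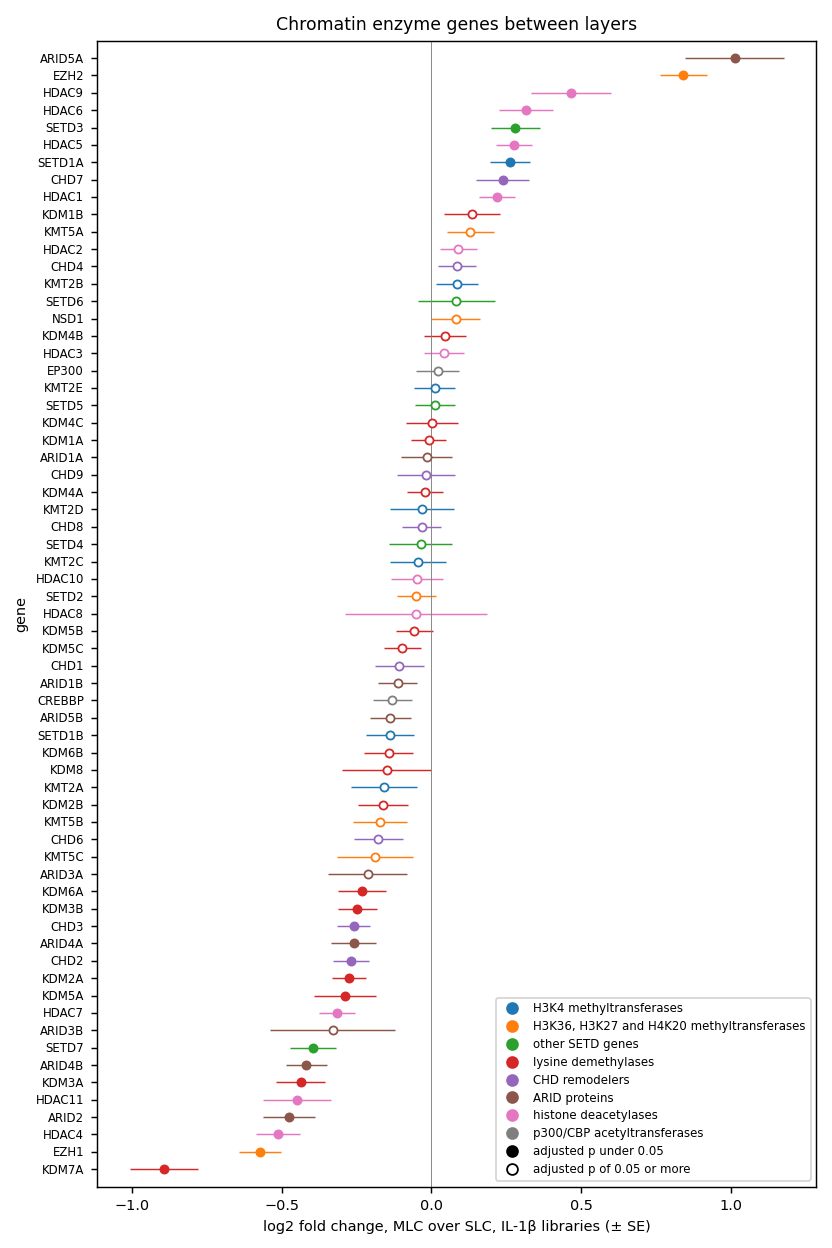
Log2 fold change of MLC over SLC in the IL-1β libraries (horizontal, ± SE) for the 65 genes, ordered by value and coloured by role. Filled points are the 25 genes with an adjusted p under 0.05. ARID5A and EZH2 lie farthest to the right, and KDM7A, EZH1 and HDAC4 farthest to the left.

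Other subunits and enzymes that work with these proteins were read from 8 lists holding 103 genes, 102 of them tested. In SLC 61 had a negative and 41 a positive log2 fold change, with a median of −0.16, and none passed edgeR's adjusted threshold (at an unadjusted p under 0.05, 33 or 32.4% were lower, against 20.2% of genes, and 23 or 22.5% higher, against 23.0%). With the first IL-1β+LOXL2 replicate left out the signs were again 61 and 41. In MLC 22 passed lower (21.6%, against 11.7% of genes) and 7 higher (6.86%, against 9.88%), and in the fit of all 12 libraries no gene was called in MLC (3738 had an unadjusted p under 0.05). Between layers 16 of 101 were lower (15.8%, against 22.6%) and 29 higher in MLC (28.7%, against 24.0%).

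Of 12 noncatalytic subunits of the KMT2 and SETD1 complexes 7 were negative and 5 positive in SLC, with a median of −0.15, from HCFC1 at −0.48 to DPY30, a core subunit that stimulates methylation, at 0.73, with WDR5, which holds the core together, at 0.57. The 20 tested SWI/SNF subunits outside the ARID proteins divided into 10 negative and 10 positive, from PBRM1 at −0.86 to DPF1 at 1.02, a gene with a normalized count of only 4.6 ± 4.19 (SD, n = 3) in SLC IL-1β. NuRD, SIN3, CoREST and NCOR subunits ran from RCOR1 at −0.62 to GPS2 at 0.63 (11 negative, 9 positive).

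The ISWI, INO80 and SRCAP group of further ATP-dependent remodelers had 10 of 12 negative values in SLC, with EP400 at −0.96 and the helicase RUVBL2 at 0.57 as its ends. All 7 DNA methylation enzymes were negative, from TET1, a dioxygenase that oxidizes methylcytosine, at −1.70 (SE 0.51, and −2.65 with the first IL-1β+LOXL2 replicate left out) to the maintenance methyltransferase DNMT1 at −0.32 (SE 0.12). TET1 counts were 249, 270 and 199 with IL-1β and 145, 31.5 and 45.6 with IL-1β+LOXL2, so the groups did not overlap. Acetyltransferases and sirtuins outside the set had 5 negative and 10 positive values, from KAT6B at −0.91 to SIRT3, a mitochondrial deacetylase, at 0.84. H3K9 and H3K79 methyltransferases ran from SETDB2 at −1.03 to SUV39H1 at 0.12 (5 negative, 2 positive), and PRC2 subunits from PHF19 at −0.54 to PHF1 at 0.45 (6 negative, 3 positive).

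Between layers, 2 of 9 PRC2 subunits passed, both higher in MLC, and of 7 DNA methylation enzymes 3 passed higher and 3 lower. Over all genes 24.0% passed higher in MLC and 22.6% lower, and counts from lists this short are not read as a result about the lists. PHF19, an accessory PRC2 subunit, was at 1019 ± 87.3 (SD, n = 3) in MLC and 422 ± 39.1 in SLC under IL-1β (log2 1.29, SE 0.09), and RBBP7, a histone-binding subunit, was higher by 0.29 (SE 0.07). UHRF1, which recruits DNMT1 to replicating DNA, was higher by 1.68 (SE 0.13), DNMT1 by 0.84 (SE 0.07) and the de novo methyltransferase DNMT3B by 0.85 (SE 0.23). The other de novo methyltransferase, DNMT3A (−0.33, SE 0.07), and the dioxygenases TET1 (−0.64, SE 0.15) and TET2 (−0.28, SE 0.08) were lower. Outside these lists, the H3K9 methyltransferase SUV39H1 was higher (0.91, SE 0.10), and KAT6B (−0.75, SE 0.07) and SIRT3 (−0.86, SE 0.19) were lower and passed.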

How the data were processed

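Poly-A RNA of goat TMJ cells was sequenced in 12 libraries, 3 per group. The deposited values are the authors' raw read counts per gene, in 1 table per layer, from reads aligned to the goat genome ARS1.2. The submitters' processing notes name HISAT2 and featureCounts. Settings for strand and for reads mapping to several genes are not given in the sources used here, so counts of overlapping or antisense genes are uncertain. The labels name an RNeasy kit for RNA isolation and the paper names TRIzol. Genomic spans were taken from the RefSeq annotation of ARS1.2, whose symbols matched 28884 of 28910 rows. No sequences or transcript lengths were used here.

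Rows with at least 10 counts in at least 3 of the libraries compared were fitted in R 4.3.3 with edgeR 4.0.16 (TMM scaling, glmQLFit, glmQLFTest, no replicate block) with Benjamini-Hochberg adjustment over all rows tested and a threshold of 0.05. Treatments were compared within each layer, and layers within IL-1β. For the layer comparison and the interaction the 2 tables were joined by name, without 1783 rows that share a name. For each SE the log2 fold change was divided by the root of the F statistic. Normalized counts used DESeq2 1.42.0 size factors of the joined table. The DESeq2 Wald test, other normalization and filters, a replicate block, 1 fit of all libraries, leaving out each library and removal of the span trend (lowess of span 0.3) were tried as alternatives. The edgeR script was tested on simulated data.

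Named in full were KMT2D, the lowest and highest member of each role in SLC, and up to 12 members called in SLC or between layers in order of p. Other members are named as examples, chosen after their values were seen. Partner lists give their lowest and highest gene in SLC, and other partners named were chosen after their values were seen. The members, lists and tests were chosen with earlier results of these data known.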

Additional observations from a re-analysis of the deposited data

How the results depend on the processing

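In SLC, 0 of 14164 genes and 0 of 65 members were called. The DESeq2 Wald test called 4130 of these genes and 33 of the members. A single fit of all 12 libraries called 5947 of 14550 genes and 44 of 65 members. Their shares by direction are given above. In that single fit the MLC count of 2986 of 13806 genes became 0. Between layers, 6538 of 14039 genes and 25 of 65 members became 3722 of 14550 genes and 9 of 65 members. A log2 fold change of at least 1 in absolute value left 144 genes and 2 members in MLC. Leaving out each library gave 0 to 8803 genes and 0 to 53 members in SLC, 0 to 6613 and 0 to 46 in MLC, 5183 to 6396 and 20 to 27 between layers, and 0 to 1 genes for the interaction, with members' medians of −0.56 to −0.30 in SLC and −0.42 to −0.21 in MLC. The nonzero SLC count arose without the first IL-1β+LOXL2 replicate. ARID5A in MLC went from 0.13 to −0.001 without the third IL-1β+LOXL2 replicate, and ranged up to 0.324 without the first. Same-numbered libraries did not deviate together (correlations of −0.27 to 0.18). With a replicate block the counts were 0 genes in SLC, 4054 in MLC and 0 for the interaction. Between layers they were 5805 of 14039 genes and 22 of 65 members. The causes were not tested. The counts of members called in MLC given here, 2 and 0 to 46, show only how the calls depend on the processing. They are not read as a result about the members, since that contrast chose the set. Other counts of members called in MLC are left out. With 3 libraries per group and no record of separate cultures, p-values cover only the spread between these libraries. Depth is lowest for ARID3B and HDAC8, with as few as 27 and 28 counts in a library.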
